A study of Mus musculus with 6 samples.

Results

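The lysozymes Lyz1 and Lyz2 and the cathepsins Ctsb, Ctsc, Ctsd, Ctsh, Ctsk, Ctsl, Ctss and Ctsz were followed in the cochlear lateral wall of young and old mice. Every probe set of the array whose platform annotation gives 1 of these 10 symbols and no other was taken, which gave 22 of 45037 non-control probe sets. The 10 genes stand among 18193 genes with a probe set of a single symbol. All mice were of the CBA/CaJ strain. Young adults, 1 to 3 months old, were compared with old adults of 1.5 years, with 3 arrays per age and 1 sample per array. Both groups were untreated mice of both sexes, reared in a low-noise colony, and the tissue was cut from the inner ear by microdissection. By the Xist readings given below, the sex make-up of the arrays was not the same in both ages. The labels do not say whether a sample is 1 animal or a pool, so the spread between arrays may be partly technical. The genes were selected on the old-minus-young log2 signal differences of these same 6 arrays. Those differences are therefore given for them as a description, with a standard error from limma and no p-value for a single gene. Counts of those that passed the threshold of the fit over all probe sets are descriptions too.

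Lysozyme is an enzyme that cuts the peptidoglycan of bacterial walls. Mice carry neighbouring copies of its gene, of which Lyz2 (lysozyme M) is made by macrophages and neutrophils and Lyz1 (lysozyme P) mainly by Paneth cells of the gut. Cathepsins are proteases that are made as inactive precursors, sorted to lysosomes and activated there at acid pH. Ctsd is an aspartic protease, and the other cathepsins followed here are cysteine proteases of the papain family. In the lateral wall, macrophages lie along the vessels of the stria vascularis and in the spiral ligament, and the resident epithelial, pigment and fibrous cells have lysosomes of their own.

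All values are deposited log2 signals, so a difference of 1 is a 2-fold change. A mean is given ± SD over 3 arrays and a difference, always old minus young, ± its standard error. The suffix of a probe set tells how specific it is by design. In the maker's naming, _at probes are meant for 1 transcript, _a_at probes for several transcripts of a gene, _s_at probes are shared by several transcripts, and some _x_at probes also match other sequences. Signals of different probe sets were not set against each other as levels, because each has its own binding.

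The starts of Lyz1 and Lyz2 are shown first, because these adjacent genes resemble each other there. RefSeq (GRCm38.p6) held a promoter window for 8 of the 10 genes, all but Ctsb and Ctsh. Each sequence below runs from 250 bases before the transcript start to 10 bases after it. In the lysozyme pair, capitals mark bases that differ or have no partner in a global alignment of both sequences.
Lyz1, chr10:117292859-117293118, minus strand: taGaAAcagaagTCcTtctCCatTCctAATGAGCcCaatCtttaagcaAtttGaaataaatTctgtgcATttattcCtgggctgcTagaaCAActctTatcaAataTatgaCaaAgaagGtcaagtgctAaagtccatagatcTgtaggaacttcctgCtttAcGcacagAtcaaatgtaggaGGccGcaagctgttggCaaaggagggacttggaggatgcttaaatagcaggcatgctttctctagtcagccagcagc
Lyz2, chr10:117282263-117282522, minus strand: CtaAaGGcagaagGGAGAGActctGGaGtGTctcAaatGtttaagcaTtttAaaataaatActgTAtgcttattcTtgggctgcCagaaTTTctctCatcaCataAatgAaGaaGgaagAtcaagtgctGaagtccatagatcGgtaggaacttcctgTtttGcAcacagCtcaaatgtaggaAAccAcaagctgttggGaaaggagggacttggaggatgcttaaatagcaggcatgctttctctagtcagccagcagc
Of 270 aligned columns, 215 were identical, 35 were substituted and 20 were gaps, an identity of 79.6%. The other 27 pairs among the 8 windows, aligned the same way, had identities of 42.9% to 54.3%. The lower-case run without a difference at the right end of both sequences surrounds the transcript start. This resemblance concerns the promoter windows and not the probes, whose sequences were not used here. It does not tell whether the Lyz1 and Lyz2 probe sets share signal.

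Lysozyme signal was higher in old tissue on each of the 4 lysozyme probe sets, and on all 4 the old arrays lay above the young arrays. Of all probe sets, 12.5% had all old arrays above all young arrays. Lyz1 and Lyz2 probes can share signal, so the 4 may not be separate readings. The Lyz2 probe set 1423547_at read 10.10, 10.65 and 10.63 on the young arrays and 12.00, 12.11 and 11.95 on the old arrays. The groups are far apart, and young replicate 1 was the lowest array. The means were 10.46 ± 0.31 and 12.02 ± 0.08 (n = 3 each), a difference of 1.56 ± 0.15, or 2.95-fold. In whole-tissue RNA, more cells of a type and more RNA per cell cannot be told apart.

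The Lyz1 probe sets fell into 2 kinds. Probe set 1436996_x_at read 11.81, 12.05 and 11.96 in young and 13.35, 13.30 and 13.25 in old tissue, a difference of 1.36 ± 0.09. Probe set 1439426_x_at read 10.57, 11.09 and 10.94 in young and 12.47, 12.57 and 12.49 in old tissue, a difference of 1.64 ± 0.13. Both are of the _x_at design, and on both the old arrays agreed within 0.10. The only Lyz1 probe set of the _at design, 1450822_at, carries the RefSeq accession of Lyz1 in the annotation. It read 3.42, 3.53 and 3.84 in young and 4.23, 3.90 and 3.92 in old tissue, a difference of 0.42 ± 0.13. These values lie below 6.28, the median signal of all probe sets, whereas the other lysozyme probe sets lie above it. The bright Lyz1 signal therefore came only from probe sets whose design allows signal from other sequences, which can include Lyz2. How much of it is Lyz1 RNA was not tested.

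**Figure D1:**
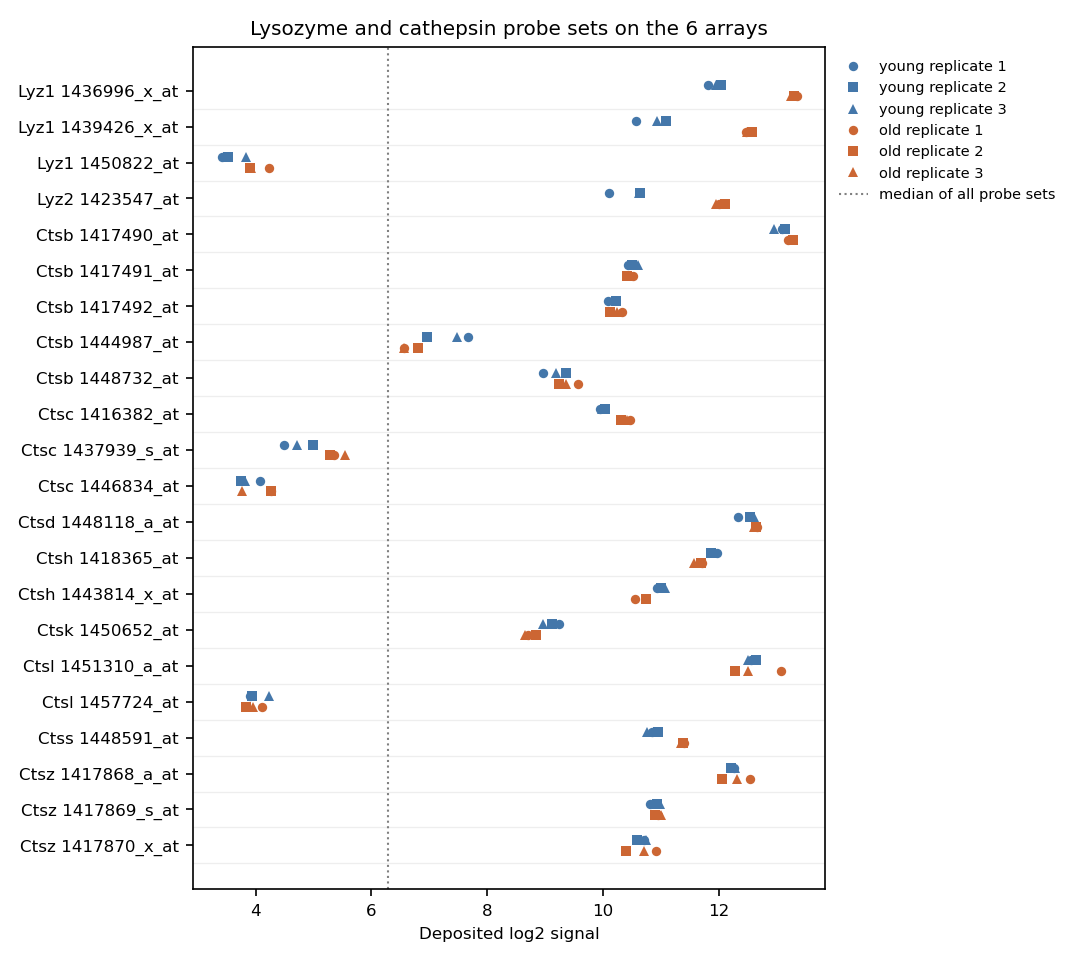
Deposited log2 signal (horizontal axis) of the 22 lysozyme and cathepsin probe sets (rows) on the 3 young (blue) and 3 old (orange) arrays, with the symbol giving the replicate. The dotted line is the median of all probe sets, 6.28. Old arrays lie to the right of all young arrays for the 4 lysozyme probe sets, for Ctss, for 2 of 3 Ctsc probe sets and for Ctsb 1417490_at, and to the left for Ctsh, Ctsk and Ctsb 1444987_at.

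In the fit over all probe sets with limma, 6 of the 22 probe sets passed a Benjamini-Hochberg adjusted p of 0.05 as higher in old tissue, where 1.86% of all 45037 did. They were the Lyz2 probe set, both _x_at sets of Lyz1, the Ctss probe set, and 2 of 3 for Ctsc. None of the 22 passed as lower, where 2.84% of all did. At an unadjusted limma p under 0.05, 8 of the 22 were higher and 4 lower. The 4 were both Ctsh probe sets, the Ctsk probe set and a Ctsb probe set. The shares of all probe sets and of all genes at this unadjusted cut are not given here. Counts at this cut, for the 22 and for the lists below, thus have no background to be read against. Groups did not overlap for 12 of the 22, 8 higher and 4 lower in old tissue, against 23.8% of all probe sets in either direction. Since the genes were chosen with this comparison known, these counts describe them and support nothing further. The count of 6 was 3 without young replicate 3 and 3 without old replicate 3, and 4 to 6 when any of the other arrays was left out. The 3 lysozyme probe sets above the median signal passed in all of these fits. The Ctss probe set missed the threshold without young replicate 3 or old replicate 3. Both Ctsc calls were lost on leaving out any array except young replicate 2.

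The cathepsins had smaller differences than the bright lysozyme sets, and not in 1 direction. Over the brightest probe set of each of the 8 genes the median difference was 0.09, against 0.03 over all 18193 genes. The differences ran from -0.37 for Ctsk to 0.52 for Ctss. At this level, 5 of 8 had groups that did not overlap, with Ctsb, Ctsc and Ctss higher and Ctsh and Ctsk lower in old tissue, where 26.7% of the 18193 genes had such groups. Nothing is read from this count either, since the choice of genes used these values.

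Ctss, a protease that stays active at neutral pH and trims the invariant chain of MHC class II in antigen-presenting cells, had the highest difference among these 8 probe sets. It read 10.85, 10.95 and 10.77 in young tissue and 11.40, 11.38 and 11.36 in old tissue. The old arrays agreed within 0.04, and all lay above the young ones. The means were 10.86 ± 0.09 and 11.38 ± 0.02, a difference of 0.52 ± 0.08, or 1.44-fold.

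Ctsc, or dipeptidyl peptidase I, activates the serine proteases stored in granules of neutrophils, mast cells and cytotoxic lymphocytes. Probe set 1416382_at read 9.96, 10.04 and 9.98 in young and 10.47, 10.31 and 10.42 in old tissue, a difference of 0.41 ± 0.08. The old arrays were above the young ones. Its _s_at probe set, below the median of all probe sets, read 4.49, 5.0 and 4.71 in young and 5.35, 5.29 and 5.55 in old tissue, a difference of 0.66 ± 0.13. The third Ctsc probe set, 1446834_at, also below that median, had overlapping groups and a difference of 0.23 ± 0.15.

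Ctsk and Ctsh were lower in old tissue. Ctsk, the collagen-degrading protease of osteoclasts, read 9.24, 9.12 and 8.96 in young and 8.71, 8.84 and 8.65 in old tissue. All old arrays lay below the young ones, with a difference of -0.37 ± 0.10, or 1.30-fold lower. Ctsh, an aminopeptidase, read 11.98, 11.87 and 11.90 in young and 11.71, 11.69 and 11.57 in old tissue on probe set 1418365_at. Its other probe set, 1443814_x_at, gave a difference of -0.32 ± 0.09 against -0.26 ± 0.08 for the first, also without overlap. Both Ctsh probe sets therefore pointed the same way, while Ctsk had a single probe set and no second reading. Ctsk and Ctss lie near each other, with 1 gene, Gm40096, between them in RefSeq (GRCm38.p6), and their differences lie on opposite sides of 0.

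Ctsb, a protease with both endopeptidase and exopeptidase action, had 5 probe sets that did not move together. The brightest, 1417490_at, read 13.10, 13.14 and 12.95 in young and 13.20, 13.29 and 13.28 in old tissue, a difference of 0.19 ± 0.08 without overlap. A further 3 sets, each with overlapping groups, differed by -0.06 ± 0.08, 0.06 ± 0.09 and 0.22 ± 0.12. Probe set 1444987_at, in contrast, read 7.67, 6.96 and 7.48 in young and 6.57, 6.81 and 6.56 in old tissue. Its difference of -0.72 ± 0.17 is the lowest of all 22 probe sets and opposes that of the brightest Ctsb set. The sources used here do not place it on the transcript. Averaged over the 5 probe sets, the Ctsb difference was -0.06.

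Ctsd, Ctsl and Ctsz differed little between the ages. Ctsd read 12.34, 12.55 and 12.61 in young and 12.66, 12.64 and 12.61 in old tissue, a difference of 0.14 ± 0.09, and young replicate 1 was the low array. Ctsl, an endopeptidase found in most tissues, had a difference of 0.05 ± 0.18 on its bright probe set 1451310_a_at. Its other probe set, 1457724_at, below the median of all probe sets, had a difference of -0.06 ± 0.12. The carboxypeptidase Ctsz had differences of 0.05 ± 0.12, 0.04 ± 0.08 and 0.00 ± 0.13 on its 3 probe sets. In all of these sets the groups overlapped.

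The wide error of Ctsl and Ctsz came from the old arrays. Ctsl 1451310_a_at read 13.08, 12.28 and 12.51 on old replicates 1, 2 and 3, against 12.56, 12.65 and 12.51 in young tissue. Of the probe sets above the median signal, 0.906% had a larger SD among the old arrays. Of the Ctsz probe sets, 2 showed the same order, with 12.55, 12.06 and 12.32 on 1417868_a_at and 10.92, 10.40 and 10.72 on 1417870_x_at. Old replicate 1 was the highest and old replicate 2 the lowest old array for 9 of the 22 probe sets, 40.9%, against 24.6% of all probe sets. The 9 include both Ctsl sets and several of Ctsb and Ctsz, so they are not 9 separate readings. Without old replicate 1 the difference of Ctsl 1451310_a_at was -0.18, and without old replicate 2 it was 0.22.

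**Figure D2:**
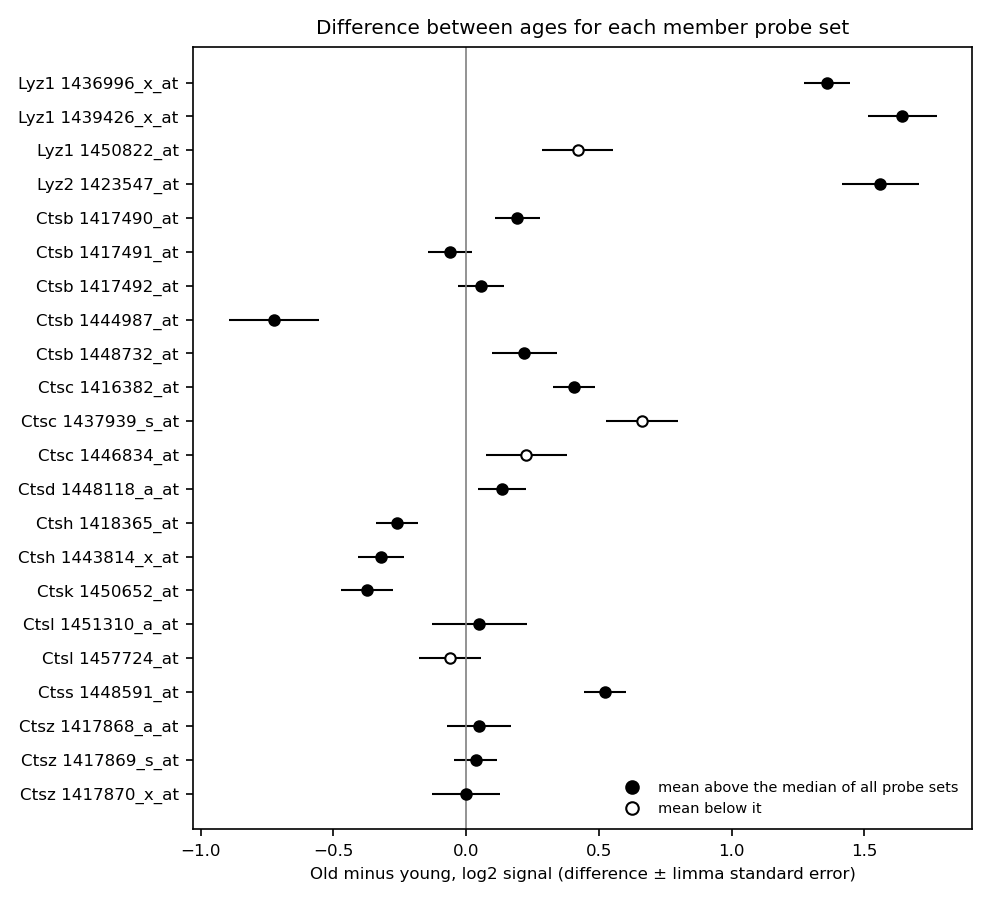
Difference between old and young tissue in log2 signal (horizontal axis, point ± limma standard error, 3 arrays per age) for each of the 22 probe sets (rows). Filled points have a mean above the median of all probe sets, open points below. The bright lysozyme sets lie at 1.36 to 1.64, Ctss at 0.52, and Ctsb 1444987_at at -0.72.

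Promoter windows of 300 bases were searched for 2 motifs on both strands, and the motifs were chosen with the expression values known. CACGTG is the core of the element bound by TFEB and its relatives MITF and TFE3 in lysosomal genes. GAGGAAGT is a sequence bound by PU.1, a factor of the myeloid lineage encoded by Spi1. CACGTG occurred in the windows of Ctsd and Ctsl and in 7.15% of 32851 windows of that length. GAGGAAGT occurred in those of Ctsc and Ctss and in 3.2% of all. The 4 windows are shown to place these letters, in capitals, and span the same bases around the start as above.
Ctss, chr3:95526536-95526795, plus strand: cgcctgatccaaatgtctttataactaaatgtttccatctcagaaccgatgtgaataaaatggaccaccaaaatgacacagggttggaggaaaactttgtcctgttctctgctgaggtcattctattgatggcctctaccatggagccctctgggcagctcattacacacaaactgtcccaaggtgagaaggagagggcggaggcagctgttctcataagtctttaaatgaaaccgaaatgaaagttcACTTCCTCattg
Ctsc, chr7:88277835-88278094, plus strand: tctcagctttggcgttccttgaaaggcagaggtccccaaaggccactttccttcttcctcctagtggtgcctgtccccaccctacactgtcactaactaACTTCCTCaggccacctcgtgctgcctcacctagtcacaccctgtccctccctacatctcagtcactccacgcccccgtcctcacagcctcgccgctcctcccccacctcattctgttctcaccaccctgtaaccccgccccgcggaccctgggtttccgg
Ctsd, chr7:142387818-142388077, minus strand: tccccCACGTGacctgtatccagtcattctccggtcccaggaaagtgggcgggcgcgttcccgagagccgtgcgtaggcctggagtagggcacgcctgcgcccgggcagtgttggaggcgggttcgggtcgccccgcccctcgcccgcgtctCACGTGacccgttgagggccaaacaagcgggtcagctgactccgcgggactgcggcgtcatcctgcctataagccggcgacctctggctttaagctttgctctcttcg
Ctsl, chr13:64370511-64370770, minus strand: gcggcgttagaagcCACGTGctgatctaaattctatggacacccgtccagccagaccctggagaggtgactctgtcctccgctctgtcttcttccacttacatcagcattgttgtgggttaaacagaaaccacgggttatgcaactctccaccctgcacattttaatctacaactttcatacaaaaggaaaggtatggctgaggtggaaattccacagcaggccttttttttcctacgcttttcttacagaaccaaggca
In Ctss the match lies on the minus strand and begins 2 bases before the transcript start, and in Ctsc it begins 151 bases before it. In Ctsd the matches begin 245 and 98 bases before the start, and in Ctsl 236 bases before it. The windows of Lyz1, Lyz2, Ctsk and Ctsz hold neither string. Only exact strings were counted, and near matches were not. The printed Lyz1 and Lyz2 windows, for example, both hold acttcctg, which differs from the ACTTCCTC of Ctss and Ctsc only in its last base. The Ctsk window also holds near matches, gaggaaga and ccttcctc, each a single base away from GAGGAAGT or ACTTCCTC. A match is a description of the letters, and binding was not measured.

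Most other genes of the lysosome and its partners did not pass the test. Over 9 lists, 125 different genes were measured, of which 5 rose and 1 fell (limma, adjusted p under 0.05), 4% and 0.8% against 2.45% and 2.33% of all genes. Their median difference was 0.03, equal to that of all genes. The lists were drawn up by gene function, with some results of this comparison already known.

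Among 14 other cathepsins, 0 passed, and 2 were lower at an unadjusted limma p under 0.05. These were Ctse, an aspartic protease of immune and epithelial cells, at -0.57 ± 0.15, and Ctsg, a neutrophil granule protease, at -0.51 ± 0.14 (limma adjusted p = 0.0747 and 0.0797). With array weights, an alternative fit that lets noisier arrays count less, 2 of the 14 were called lower, as were 2 without young replicate 2, and with the replicate number as a block 1 was. Among 7 lysozyme-like genes, 0 passed, also at an unadjusted p under 0.05, and all 7 had signals below the median of all probe sets. Lyzl4 and Lyg2 had the smallest p, at -0.17 ± 0.10 and 0.16 ± 0.09 (limma adjusted p = 0.396 and 0.436).

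Of 13 measured cathepsin inhibitors, 0 passed, and 1 was higher and 1 lower at an unadjusted limma p under 0.05. Cst6, cystatin M/E, an inhibitor of Ctsl and legumain, went from 8.63 ± 0.29 to 9.21 ± 0.05 without overlap (limma adjusted p = 0.0520). It passed under array weights, an intensity trend with robust variance, a filter on dim probe sets and repeated quantile normalization, with adjusted p down to 0.0304. Ctla2b, which resembles a cathepsin propeptide, was at -0.36 ± 0.14 (limma adjusted p = 0.194). The main secreted inhibitor Cst3, cystatin C, and the intracellular Cstb had overlapping groups, with differences of -0.07 and -0.04.

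Of 10 genes that sort enzymes to the lysosome, Gga3, an adaptor that carries mannose 6-phosphate receptors from the Golgi, rose from 8.79 ± 0.20 to 9.35 ± 0.07 (limma adjusted p = 0.0285). The other 9 did not pass, and the list median was 0.10. Of 33 other lysosomal hydrolases, only Acp5, the tartrate-resistant acid phosphatase of osteoclasts and macrophages, rose, by 0.90 ± 0.17 (limma adjusted p = 0.0232), with a list median of 0.02. Of 15 lysosomal membrane proteins, 2 rose. Cd68, the macrophage member of the LAMP family, went from 7.69 ± 0.20 to 8.85 ± 0.10, and Slc11a1, a metal transporter of the phagosome, from 6.90 ± 0.13 to 7.35 ± 0.05 (limma adjusted p = 0.00231 and 0.0275). All 4 of these genes had old arrays above all young arrays. The widely expressed Lamp1 and Lamp2 were at 0.11 and -0.05 (limma adjusted p = 0.510 and 0.817). At an unadjusted limma p under 0.05, 4 of the 10 sorting genes were higher, 8 of the 33 hydrolases and 3 of the 15 membrane proteins, and 0 were lower. Their mean signals were 9.72 to 9.84, 9.81 to 9.93 and 10.34 to 10.41 on young arrays. On old arrays they were 9.92 to 9.94, 9.94 to 9.96 and 10.49 to 10.53.

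Of 18 regulators of lysosomal genes, 0 passed, and 2 were higher and 1 lower at an unadjusted limma p under 0.05. Mitf, which also directs the pigment cells of the stria, was at -0.38 ± 0.11 and Zkscan3, a repressor of lysosomal genes, at 0.29 ± 0.11 (limma adjusted p = 0.0970 and 0.177). Mitf passed with array weights and with an intensity trend and robust variance (limma adjusted p = 0.0210 and 0.0365). Tfeb had overlapping groups and a difference of -0.05. Of 9 genes for loading MHC class II, the step that Ctss serves, H2-Ab1 rose by 0.56 ± 0.11 (limma adjusted p = 0.0303) and the list median was 0.19. As the mean of its 3 probe sets, H2-Ab1 was at 0.24 and did not pass (limma adjusted p = 0.0938). The invariant chain gene Cd74, a substrate of Ctss, was at 0.19 with overlapping groups (limma adjusted p = 0.477). Of these 9 genes, 2 were higher and 0 lower at an unadjusted limma p under 0.05.

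Of 8 granule proteases that Ctsc activates or that belong to that class, Prtn3, proteinase 3 of neutrophils, fell by 0.77 (limma adjusted p = 0.0419), and 7 did not pass. At an unadjusted limma p under 0.05, 1 of the 8 was higher and 2 were lower. All 8 were below the median of all probe sets on average. The Prtn3 call was lost with cyclic loess (limma adjusted p = 0.0507). Calls also depended on single arrays. On leaving out 1 array the highest limma adjusted p was 0.122 for Gga3, 0.0812 for Acp5, 0.0945 for Slc11a1, 0.102 for H2-Ab1 and 0.139 for Prtn3, whereas Cd68 stayed at or below 0.0181. Leaving out old replicate 1 ended all 5 of these calls. Old replicate 2 did so for all but Acp5, old replicate 3 for all but H2-Ab1, young replicate 3 for all but Slc11a1, young replicate 1 for Gga3, H2-Ab1 and Slc11a1, and young replicate 2 for H2-Ab1 and Prtn3.

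**Figure D3:**
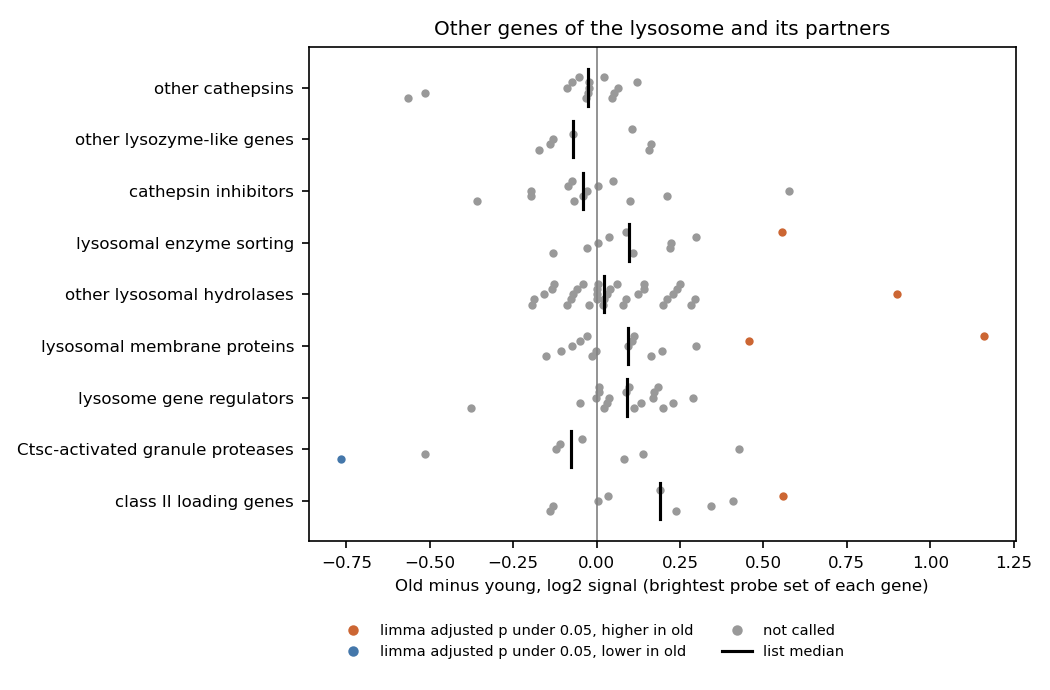
Difference between old and young tissue in log2 signal (horizontal axis, brightest probe set of each gene) for the genes of 9 lists (rows), with black bars at the list medians. Orange points passed a limma adjusted p of 0.05 as higher in old tissue and the blue point as lower, while grey points did not pass. Cd68 at 1.16 and Acp5 at 0.90 stand furthest to the right, and Prtn3 at -0.77 furthest to the left.

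Markers of the cells that make lysozyme did not move together. Of 19 macrophage markers, 4 rose, 2 fell and 13 did not pass, and their mean signal was 7.76 to 7.87 on young arrays and 7.94 to 8.02 on old arrays. Cd68 and Mpeg1, a pore-forming protein of macrophages, rose by 1.16 and 1.07 (limma adjusted p = 0.00231 and 0.00310), and Tyrobp and Ptprc by 0.67 and 0.64 (limma adjusted p = 0.00634 and 0.0358). Cd14 and Mertk fell by 1.03 and 0.62 (limma adjusted p = 0.00181 and 0.0174). With young replicate 2 left out, 5 rose and 2 fell, and with any of the other arrays left out 3 rose and 1 fell, as Mertk no longer passed. The receptor Csf1r, on which macrophages depend, was at -0.08 with overlapping groups. The list median was 0.19, and the 13 that did not pass had differences of -0.45 to 0.44, with a mean of 0.09. Of all 19, 8 were higher and 4 lower at an unadjusted limma p under 0.05. Old arrays lay above all young arrays for 8 of the 19 and below them for 3, where 26.7% of all genes had groups that did not overlap.

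Neutrophil markers went the other way from lysozyme. Of 11 measured, 8 fell and 0 rose, and none was higher at an unadjusted limma p under 0.05. Their median difference was -0.77, and their mean signal was 6.93 to 7.37 on young and 5.99 to 6.51 on old arrays. S100a8 and Camp, proteins of neutrophil cytosol and granules, fell by 1.78 and 1.68 (limma adjusted p = 0.0304 and 0.0102). The count of 8 was 3 without old replicate 1, 3 without old replicate 3, 5 without young replicate 2, 1 without young replicate 3, and 6 or 7 without the others. The part that shifts in these cells had in the lysozyme and cathepsin values was not tested.

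**Figure D4:**
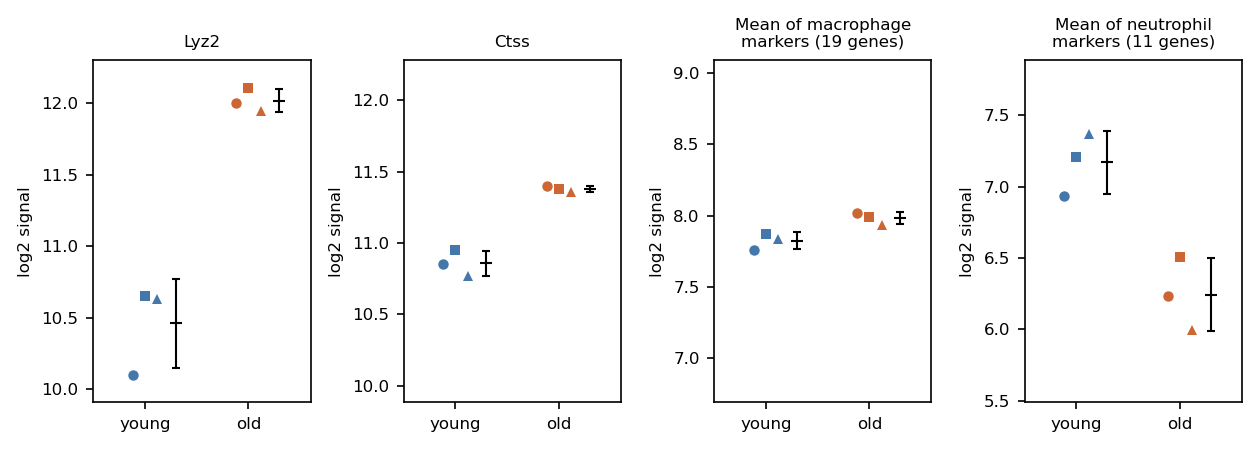
Log2 signal (vertical axes, all spanning the same range) of Lyz2, Ctss, the mean of 19 macrophage markers and the mean of 11 neutrophil markers on the young (blue) and old (orange) arrays, with the symbol giving the replicate and the black bar the mean ± SD of 3 arrays. Lyz2 is higher by 1.56 in old tissue, the macrophage mean by 0.16, and the neutrophil mean is lower by 0.93 on the log2 scale.

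Markers of bone stand beside the Ctsk value, since osteoclasts are its best-known source. Of 10 osteoclast markers, 2 rose and 0 fell. These were Acp5 and the proton pump subunit Atp6v0d2, which went up by 1.73 (limma adjusted p = 0.00303). The mean osteoclast marker signal lay between 5.47 and 5.53 in young tissue and between 5.70 and 5.78 in old tissue, and 8 of the 10 had signals below the median of all probe sets. The list median was 0.02, and the 8 that did not pass had a mean difference of -0.03, so the shift of the mean came from the 2 called genes. Of 7 osteoblast and osteocyte markers, 3 fell and 0 rose, with a mean signal of 8.19 to 8.74 in young and 7.0 to 7.88 in old tissue, and a median difference of -1.2. The osteoclast count was 1 without old replicate 1, old replicate 3 or young replicate 3, which each ended the Acp5 call. The osteoblast count was 5 without old replicate 2, 2 without old replicate 1 or 3, and 1 without young replicate 3. Ctsk was thus lower while both called osteoclast markers were higher, and the part of bone cells in its value was not tested.

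The genes with the nearest profile were sought among 11582 genes above the median signal, by the root mean square difference of profiles centred on their own mean over the 6 arrays. For Lyz2 these were the potassium channel gene Kcnk2 (0.16), the beta-glucan receptor gene Clec7a (0.17), Hpcal4 (0.17), the galectin-3 gene Lgals3 (0.18) and the chemokine gene Ccl12 (0.19). For Ctss they were Ska2, Gmcl1, Zdhhc6, Pigbos1 and Sfpq, at 0.04 to 0.05. For Ctsk they were Ago3, an Argonaute of the microRNA pathway, Zfp354c, Kif5b, Sfmbt1 and Ptprd, at 0.03 to 0.05. The Lyz2 neighbours differed between the ages by 1.27 to 1.74, those of Ctss by 0.45 to 0.51 and those of Ctsk by -0.38 to -0.30. The 6 arrays fall into 2 groups, so by this measure genes with an age difference of like size lie close together.

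Markers of the labelled tissue were present. All 14 lateral wall genes lay above the median signal, among them Coch and Otos of the spiral ligament and Kcnq1 and Dct of the stria. None of the 14 passed, with 2 higher and 1 lower at an unadjusted limma p under 0.05, and 2 higher and 1 lower were called with an intensity trend and robust variance. The arrays had medians of 6.26 to 6.30. Young replicate 2 stood apart in Xist, which silences 1 X chromosome in female cells. It read 6.06 there, against 11.95 to 12.65 on the remaining 5 arrays. Only the young group thus held an array with low Xist, as the old arrays read 12.24 to 12.65, so by Xist the ages were not matched for sex. Without young replicate 2, the Lyz2 difference was 1.66, that of Ctss 0.57, that of Ctsc 0.43 and that of Ctsk -0.37. The 3′ control probe set of Gapdh exceeded its 5′ control by 1.07 to 1.25 on young and 1.26 to 1.45 on old arrays, and its part in these values was not tested.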

How the data were processed

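RNA of the dissected lateral wall was labelled with the Affymetrix 3′ IVT Express kit and hybridised 1 sample per array, per the labels' protocols. Expression Console, RMA and MAS5 appear in the submitters' processing notes, and which of them made the table is not given in the sources used here. The authors' deposited table holds log2 signals with 2 decimals for 45101 probe sets on 6 arrays. Background and batches were not examined, since no scanner file was used. RMA brings arrays to a shared distribution, which would remove a shift of most genes.

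The 64 control probe sets were left out, and limma 3.58.1 (R 4.3.3) was fitted to the other 45037 by lmFit and eBayes, with age as the only term and Benjamini-Hochberg adjustment over all probe sets. Symbols came from the platform annotation, with 34945 probe sets of 1 symbol, 932 of several and 9160 not listed. The 10 symbols matched current RefSeq symbols. Outside the lysozymes and cathepsins, a gene is its brightest probe set. Named genes were all probe sets of the 10 genes, up to 4 called genes per list (2 per direction) or the 2 with the smallest p, and the 5 nearest profiles of Lyz2, Ctss and Ctsk. Lamp1, Lamp2, Cst3, Cstb, Tfeb, Cd74, Csf1r, Tyrobp, Ptprc, Xist and the lateral wall genes were added after their values were seen. The genes and all lists were chosen with earlier results of these data known. Lists are described by counts and medians, with no set test. Of the remaining marker lists, organ of Corti and neuron genes had 0 of 8 called (0 at an unadjusted limma p under 0.05), lymphocyte genes 1 of 7 higher and erythroid genes 1 of 3 lower. Alternatives were other normalizations, a filter on dim probe sets, variance and weight models, a block, a stricter threshold, gene means and leaving out each array. The number of arrays limits the precision.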

Additional observations from a re-analysis of the deposited data

How the results depend on the processing

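With 3 arrays per age, calls near the threshold depend on single arrays, and signal over background is not known. Leaving out 1 array gave 133 to 1851 probe sets called higher (838 with all arrays) and 382 to 1542 lower (1281), 3 to 6 lysozyme and cathepsin probe sets higher (6) and 0 to 1 lower (0), 1 to 5 pathway genes higher (5) and 0 to 3 lower (1), and 5 to 8 marker genes higher (7) and 3 to 13 lower (14). With array weights, 2266 probe sets were higher and 2214 lower, 3 lysozyme and cathepsin probe sets were lower, and 11 pathway genes were higher and 4 lower. At an adjusted p of 0.01 the counts were 116 and 320 probe sets, 3 lysozyme and cathepsin sets higher, 1 pathway gene higher and 0 lower, and 4 marker genes lower. Lysozyme and cathepsin sets called lower numbered 3 with an intensity trend and robust variance, 3 over probe sets above the median signal, 1 with cyclic loess and 1 with median centring. Pathway genes called lower numbered 2 with the trend, 0 with cyclic loess and 0 over probe sets above the median signal. The deviations of equally numbered arrays from their group means correlated at 0.14, 0.08 and 0.01. Young replicates 1 and 2 correlated best with the old array of the same number, whereas young replicate 3 correlated better with old replicate 2 (0.03). These small values do not settle whether the numbers pair the samples. With the replicate number as a block, 829 probe sets were higher and 1103 lower, 5 lysozyme and cathepsin sets were higher and 0 lower, and 2 pathway genes were lower. The lysozyme differences kept their sign in every fit, with Lyz2 at 1.38 to 1.66. As the mean of all its probe sets, Lyz1 was at 1.14 and Ctsb at -0.06. The median difference over all probe sets was 0.0067 in the main fit. It was 0.0022 to 0.0133 with the other normalizations, the variance and weight models and the block. Over probe sets above the median signal it was 0.03.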
